A study of Mus musculus with 6 samples.

Results

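Rest, which encodes the repressor of neuronal genes REST, was followed with 3 neuronal genes, Syt11, Tubb3 and Map2, in mouse leukaemia cells: a Notch1-driven T-ALL, the acute lymphoblastic leukaemia of the T lineage. These 4 genes were taken by name from 13185 gene rows. They were chosen for how they differed between panobinostat and untreated libraries, so their own differences are given as a description. Whether they passed a threshold is not read as a test of them. Panobinostat, which blocks histone deacetylases (HDACs), was given at 25 nM for 2 h in 3 libraries, and the other 3 libraries came from untreated cells. Both groups were under T cell stimulation, with anti-CD3 coated on the plate (2.5 ug/mL) and IL-2 in the medium (100 U/mL). The labels did not say how Notch1 was activated, whether the leukaemia was 1 clone, or if each library had its own culture or animal. The p-values below therefore measure only the spread between these libraries, which may be technical.

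REST is a zinc finger protein that binds a DNA element called RE1 near many neuronal genes and keeps them silent outside the nervous system. It does so by recruiting CoREST and SIN3 complexes, which carry the histone deacetylases HDAC1 and HDAC2, the lysine demethylase LSD1 and histone methyltransferases. HDAC activity, the target of panobinostat, is thus part of how REST represses. SYT11 is a membrane trafficking protein of the synaptotagmin family, TUBB3 is the beta-tubulin used as a marker of neurons, and MAP2 stabilises microtubules in dendrites. How far each of these 3 genes depends on REST in T cells was not tested here.

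The assay sequenced the polyadenylated ends of transcripts, so a value counts transcript ends and needs no division by length, and splice forms with the same end cannot be told apart. Values are log2 CPM (counts per 1000000 reads). Judged by the spacing of low values, 1 CPM stood for about 6.01 to 7.74 reads, or 6011583 to 7742115 reads per library. Of 12554 genes tested, 4806 passed the threshold in either direction (38.3%; limma, Benjamini-Hochberg adjusted p below 0.05). By direction, 19.2% of all tested genes rose and 19.0% fell, the shares beside which the marker counts below stand. All 13 T lineage markers had values, summing to 1607 to 1624 CPM in panobinostat libraries and 2169 to 2258 CPM in untreated libraries, with 0 risen and 7 fallen. In such bulk samples, fewer cells of a type and less RNA per cell cannot be told apart. RNA of other blood lineages was present: the 8 erythroid markers summed to 6361 to 6769 CPM in panobinostat libraries and 6777 to 8051 CPM in untreated libraries (1 rose, 5 fell). The 8 myeloid markers summed to 1055 to 1152 CPM in panobinostat libraries and 1295 to 1467 CPM in untreated libraries (0 rose, 4 fell). Of 6 B cell markers, 5 had values, summing to 60.6 to 69.7 CPM in panobinostat libraries and 74.8 to 79.5 CPM in untreated libraries (0 rose, 2 fell). The part of these lineages in the results below was not tested.

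DNA around the RefSeq starts of the neuronal genes is shown because RE1 is the sequence through which REST acts. A RefSeq promoter window, from 250 bases before to 50 bases after the start (GRCm38.p6), was matched for 3 of the 4 genes, Syt11, Tubb3 and Map2. The windows were searched on both strands for the RE1 half-sites CAGCACC (left) and GGACAG (right). The first sequence is the stretch of the Map2 window before any annotated UTR, at chr1:66175079-66175272 on the plus strand. The second is the same for Tubb3, at chr8:123411303-123411423 on the plus strand. The last 2 are 30-base windows around a half-site of Syt11, at chr3:88772793-88772822 on the minus strand, and of Tubb3, at chr8:123411421-123411450 on the plus strand. These are not upstream of the whole gene. The Syt11 window lies inside the GENCODE M21 gene span (88744700 to 88775164), and most of the Tubb3 window does (from 123411424). Capitals mark a half-site, which in each of these lies on the strand opposite to the gene and so reads as its reverse complement.
Map2 upstream: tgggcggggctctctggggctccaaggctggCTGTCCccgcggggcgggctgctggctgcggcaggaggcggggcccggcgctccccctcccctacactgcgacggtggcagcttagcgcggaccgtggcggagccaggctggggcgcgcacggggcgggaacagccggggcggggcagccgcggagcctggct
Tubb3 upstream: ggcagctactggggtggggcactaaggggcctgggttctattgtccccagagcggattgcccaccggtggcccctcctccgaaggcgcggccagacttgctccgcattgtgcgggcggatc
Syt11 right half-site: acctatccaagaCTGTCCttgactctcctt
Tubb3 left half-site: atctcggtgccGGTGCTGatgctgcagagc

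The left half-site occurred in 7.14% and the right half-site in 22.2% of all 32851 promoter windows. Tubb3 held both, at separate places, and Syt11 and Map2 held the right one alone. The core motif searched for here joins both half-sites with NN between them. With at most 2 mismatches over its 13 letters, this joined motif was found in 1.92% of all windows, and its closest match in each of the 3 windows had 4 mismatches. RE1 elements often lie outside such windows, in introns or farther upstream, and these were not searched. The Map2 and Tubb3 windows were rich in G and C (77.7% and 67.3%, above 97.9% and 86.2% of all windows), and held 37 and 26 CpG dinucleotides. The Syt11 window had 53% G and C, near the median of 52.7%, and 14 CpG dinucleotides.

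**Figure D1:**
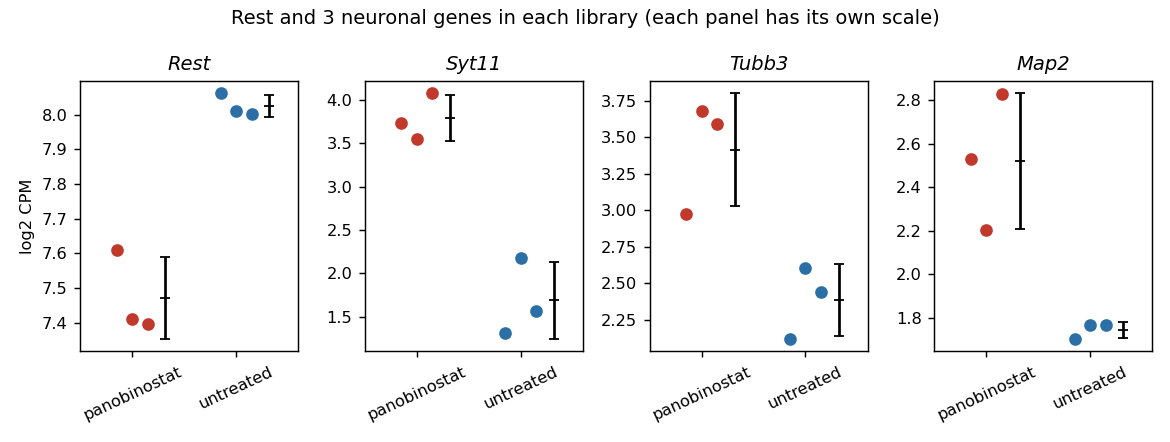
Expression of Rest, Syt11, Tubb3 and Map2 in log2 CPM, with 1 point per library, 3 per group, and the mean with its SD in black. Rest lay lower, and the 3 neuronal genes higher, in all panobinostat libraries than in all untreated libraries; each panel has its own scale, which does not start at 0.

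The repressor gene itself was lower after panobinostat. Rest (chromosome 5, 77265491 to 77286432, plus strand, GENCODE M21 on GRCm38) stood at 195, 170 and 169 CPM in panobinostat libraries 1 to 3, against 267, 258 and 257 CPM in untreated libraries 1 to 3. The groups did not overlap, and panobinostat library 1 lay closest to the untreated ones. On the log2 scale this was 7.47 ± 0.12 in panobinostat libraries and 8.02 ± 0.03 in untreated libraries (SD, n = 3), a log2 fold change of -0.55 (standard error, SE, 0.08). The panobinostat level at 2 h was thus 0.682 of the untreated level, in normalized values that give no absolute amount. Rest was among the well expressed genes, above 92.7% of tested genes in panobinostat libraries and above 95.5% in untreated libraries. These values rested on an estimated 1151 to 1279 reads in panobinostat libraries and 1692 to 2068 reads in untreated libraries. Its log2 fold change was below that of 82.2% of tested genes.

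Syt11 showed the widest difference of the 3 neuronal genes. Syt11 (chromosome 3, 88744700 to 88775164, minus strand) stood at 13.3, 11.7 and 16.9 CPM in panobinostat libraries 1 to 3, against 2.48, 4.53 and 2.96 CPM in untreated libraries 1 to 3. Every panobinostat library lay above every untreated one, with a gap of 1.37 on the log2 scale between the nearest libraries. Its log2 CPM was 3.79 ± 0.26 in panobinostat libraries and 1.69 ± 0.45 in untreated libraries (SD, n = 3), a log2 fold change of 2.1 (SE 0.26), or 4.3-fold. Only 0.55% of tested genes had a larger log2 fold change. The untreated values came from an estimated 20, 29 and 19 reads. The fewest, 19, has an exact Poisson 95% interval of 11.4 to 29.7, which covers counting error only. The panobinostat values came from an estimated 79 to 130 reads.

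Tubb3 and Map2 differed less. Tubb3 (chromosome 8, 123411424 to 123422015, plus strand) stood at 7.86, 12.8 and 12.1 CPM in panobinostat libraries 1 to 3, against 4.34, 6.08 and 5.43 CPM in untreated libraries 1 to 3. The groups did not overlap, but panobinostat library 1 lay well below its 2 companions and only 0.37 above the highest untreated library on the log2 scale. Its log2 CPM was 3.42 ± 0.38 in panobinostat libraries and 2.39 ± 0.25 in untreated libraries (SD, n = 3), a log2 fold change of 1.03 (SE 0.24), or 2.04-fold.

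Map2 (chromosome 1, 66175273 to 66442583, plus strand) stood at 5.76, 4.6 and 7.09 CPM in panobinostat libraries 1 to 3, against 3.25, 3.4 and 3.4 CPM in untreated libraries 1 to 3. The untreated libraries were nearly equal while the panobinostat libraries were spread, with library 2 nearest to the untreated level. Its log2 CPM was 2.52 ± 0.31 in panobinostat libraries and 1.74 ± 0.04 in untreated libraries (SD, n = 3), a log2 fold change of 0.77 (SE 0.22), or 1.71-fold. Map2 was read 30 to 54 times in panobinostat libraries and 22 to 26 times in untreated libraries, by the same estimate. Larger log2 fold changes than that of Tubb3 were found in 5.93% of tested genes, and larger than that of Map2 in 10.8%.

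In both conditions the neuronal genes were far below Rest. Their 3 values together came to 27.0, 29.2 and 36.0 CPM in panobinostat libraries 1 to 3, and to 10.1, 14 and 11.8 CPM in untreated libraries 1 to 3. Among themselves their order by mean differed between groups. In panobinostat libraries Syt11 and Tubb3 overlapped in log2 CPM (3.55 to 4.08 and 2.97 to 3.68), and Map2 lay below both (2.20 to 2.83). In untreated libraries Tubb3 (2.12 to 2.60) and Syt11 (1.31 to 2.18) overlapped, and Map2 (1.70 to 1.77) lay within the range of Syt11. Compared within each library, Syt11 stood above Tubb3 in panobinostat libraries 1 and 3 and below it in panobinostat library 2 (11.7 against 12.8 CPM). Tubb3 stood above Syt11 in every untreated library.

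All 4 genes passed the filter on low values and the threshold used for other genes, 3 of them higher in panobinostat libraries and 1 lower. Map2 missed that threshold when panobinostat library 1 or 3, or untreated library 2 or 3, was left out (limma adjusted p 0.0599 to 0.103), and the other 3 genes passed it in every such fit. Of all tested genes, 19.2% rose and 19.0% fell, and in 25.7% all panobinostat libraries lay above, and in another 25.7% below, all untreated ones. Because the 4 genes were picked on this contrast, nothing is read from how many of them passed, or in which fits. For genes as low as the neuronal ones, with a mean log2 CPM below 3, 11.6% of 4065 tested genes rose and 12.2% fell.

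**Figure D2:**
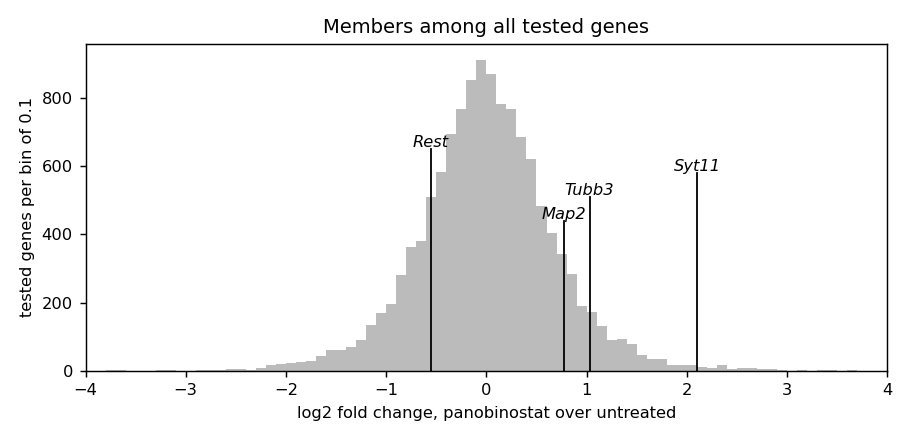
Distribution of log2 fold changes, panobinostat over untreated, for 12554 tested genes in bins of 0.1, with lines at the 4 genes. Syt11 (2.1) lies in the far right tail, Tubb3 (1.03) and Map2 (0.77) on the right shoulder, and Rest (-0.55) on the left side; line heights only separate the labels.

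The ends of these 4 transcripts were checked for sequence shared with other genes. None of the 50-base stretches in the last 500 bases of their coding transcripts occurred in a transcript of another gene (0 of 451 for Rest, 0 of 903 for Syt11, 0 of 902 for Tubb3 and 0 of 4351 for Map2). Tubb3 lies inside the long gene Gm20388 on the same strand but shares 0 exonic bases with it. Map2 shares 124 exonic bases with Gm10558, an antisense gene. The strand setting of the counting was not given in the sources used here, so reads from those bases could not be assigned.

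The genes closest to each of the 4 in their pattern over the 6 libraries, by root mean square difference of centred log2 values, were named by rule. For Rest these were Mtbp (0.03), Fundc1 (0.04) and Cul1 (0.04). Cul1 encodes the scaffold of the SCF ubiquitin ligases, one of which marks the REST protein for degradation. For Syt11 they were Cntnap2 (0.13), a neurexin family gene of axons, Hcn3 (0.16), a pacemaker channel gene, and Sag (0.18), the arrestin of photoreceptors. Cntnap2 and Sag were very low in untreated libraries: they averaged 1.64 and 1.58 log2 CPM in panobinostat libraries, against -0.42 and -0.28 in untreated libraries. For Tubb3 they were Dcp1a (0.10), Entpd7 (0.11) and Ciao1 (0.14), and for Map2 Dvl3 (0.06), Tmem64 (0.10) and Tecpr2 (0.10). Dvl3 was low as well, averaging 0.54 log2 CPM in panobinostat libraries and -0.18 in untreated libraries. The untreated means of Cntnap2, Sag and Dvl3 were below the filter of 0, so these genes passed it only through their panobinostat values. With 6 libraries in 2 groups, any gene with a similar shift comes close by this measure.

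Of 26 listed genes for corepressors that REST recruits, all tested, 6 rose (23.1%) and 5 fell (19.2%), shares near those of all tested genes (19.2% rose, 19.0% fell). The other 15 were not called, and the median log2 fold change was 0.03 (all genes -0.01). Hdac1, a catalytic deacetylase of both complexes, rose and differed the most among those that rose, at 8.46, 8.26 and 8.43 log2 CPM in panobinostat libraries, against 7.88, 7.53 and 7.79 in untreated libraries (log2 fold change 0.65, SE 0.11, limma adjusted p = 0.00317). Rises were also found for the histone-binding subunit gene Rbbp4 (0.52 ± 0.11, SE), the CoREST scaffold gene Rcor1 (0.48 ± 0.11), the SIN3 scaffold gene Sin3a (0.31 ± 0.09), the SIN3 complex gene Sap18 (0.26 ± 0.08) and Gse1 (0.57 ± 0.16).

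Smarca4, the BRG1 remodelling ATPase that helps REST bind chromatin, fell, at 7.61, 7.79 and 7.68 log2 CPM in panobinostat libraries, against 8.44, 8.42 and 8.46 in untreated libraries (log2 fold change -0.75, SE 0.07, limma adjusted p = 0.00052). For Smarca4 the groups did not overlap, and each was narrow. Falls were also found for the H3K4 demethylase gene Kdm5c (-0.40 ± 0.12, SE) and the zinc finger genes Zmym2 (-0.37 ± 0.08) and Zmym3 (-0.41 ± 0.12). Kdm1a, which encodes LSD1, stood at 0.06 and Hdac2 at 0.04 on the log2 scale, and neither passed. The list gave 5 calls when panobinostat library 1, panobinostat library 3 or untreated library 3 was left out, and 6 when panobinostat library 2 or untreated library 2 was. Sin3a, Sap18, Gse1, Kdm5c and Zmym3 each lost their call in 4 to 6 of the 6 fits that left out 1 library and kept their direction (0.46 to 0.73 for Gse1).

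**Figure D3:**
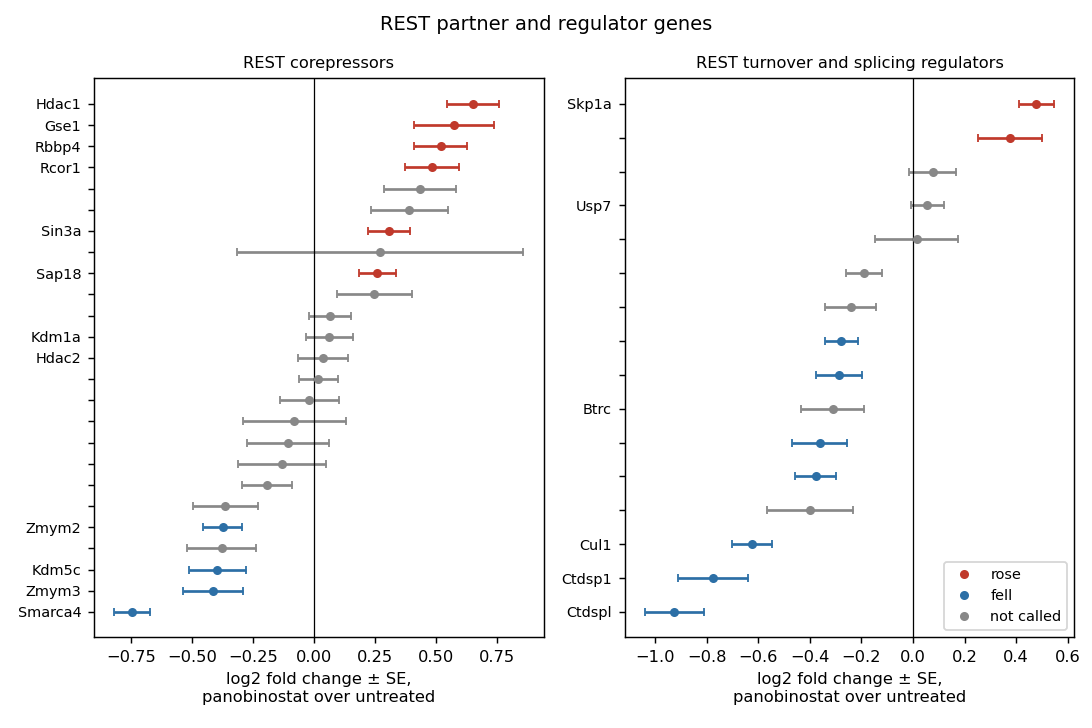
Log2 fold change with its SE, panobinostat over untreated, for tested genes of the corepressor list (left) and of the list of REST turnover and splicing regulators (right); red points rose, blue points fell and grey points were not called. Smarca4 (-0.75) and Hdac1 (0.65) stand at the ends of the first list, and Ctdspl (-0.93) and Skp1a (0.48) at the ends of the second. Genes not named in the text have no label, and 1 gene of each list is not shown.

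Of 19 listed genes that control the amount and form of REST, 17 were tested. Of these, 3 rose (17.6%, against 19.2% of all tested genes), 7 fell (41.2%, against 19.0%) and 7 were not called, with a median log2 fold change of -0.28. Ctdspl, a small phosphatase gene, fell to 4.24, 4.50 and 4.30 log2 CPM in panobinostat libraries, against 5.17, 5.32 and 5.33 in untreated libraries (log2 fold change -0.93, SE 0.11, limma adjusted p = 0.0011). Its relative Ctdsp1 also fell (-0.78 ± 0.14, SE). The products of Ctdspl and Ctdsp1 remove phosphates from REST or act with it in silencing. Another listed gene of this phosphatase family, outside the naming rule, went the other way and rose (0.38 ± 0.12). It lost its call in 5 of the 6 fits that left out 1 library. Cul1 fell (-0.62 ± 0.08) and Skp1a, another SCF core gene, rose (0.48 ± 0.07). Btrc, which encodes the F-box protein that recognises REST, stood at -0.31 and Usp7, which encodes a deubiquitinase of REST, at 0.06, and neither passed. Without panobinostat library 2 the list gave 6 calls.

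Further neuronal genes reported as REST targets gave few rows. Of 69 listed, 13 had a value and 10 were tested, of which 5 rose and 1 fell. Of all tested genes 19.2% rose and 19.0% fell, and of those with a mean log2 CPM below 3, 11.6% and 12.2%. The other 56 were not analysed here. The median log2 fold change of the 10 was 0.90, but a low gene could pass the filter through its panobinostat values alone, so this median says little. For 1 of the 10 the untreated mean was below the filter.

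Rab3a, a small GTPase gene of synaptic vesicles, rose to 2.92, 3.12 and 3.18 log2 CPM in panobinostat libraries, against 2.12, 1.96 and 1.57 in untreated libraries (log2 fold change 1.19, SE 0.21, limma adjusted p = 0.00405). For Rab3a the groups did not overlap. Cdk5r1, the neuronal activator gene of the kinase CDK5, rose by 0.62 ± 0.11 (SE, limma adjusted p = 0.00454).

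Kcnn4 went the other way. It encodes the calcium-activated potassium channel of activated T cells and is a REST target outside neurons. It fell to 6.28, 6.20 and 6.16 log2 CPM in panobinostat libraries, against 7.70, 7.86 and 7.77 in untreated libraries (log2 fold change -1.56, SE 0.08, limma adjusted p = 0.000101). It had the highest level of the 10 tested genes in both groups.

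Outside the naming rule, and chosen after their values were seen, are the sixth called gene and the 3 genes below the filter. Elavl4, a neuronal RNA-binding protein gene, rose by 1.83 ± 0.37 (SE, limma adjusted p = 0.00704). Its untreated libraries held an estimated 13, 4 and 5 reads. Its relative Elavl3 had 9, 8 and 11 estimated reads in panobinostat libraries, against 3, 3 and 5 in untreated libraries. Unc13a, a vesicle priming gene, had 12, 10 and 19 estimated reads in panobinostat libraries, against 0, 4 and 4 in untreated libraries. Mapk8ip1, a scaffold gene of the JNK pathway, had 8, 25 and 9 estimated reads in panobinostat libraries, against 3 in each untreated library. The groups did not overlap for any of these 3, which had no test. All panobinostat libraries lay above all untreated ones in 25.7% of tested genes, and the share among untested rows was not computed. Because the 3 were chosen after their values were seen, nothing is read from this. Bex1, Nefh, Bsn and Cacna1a were tested and did not pass, with log2 fold changes of 1.68, -0.34, -0.64 and -0.85.

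**Figure D4:**
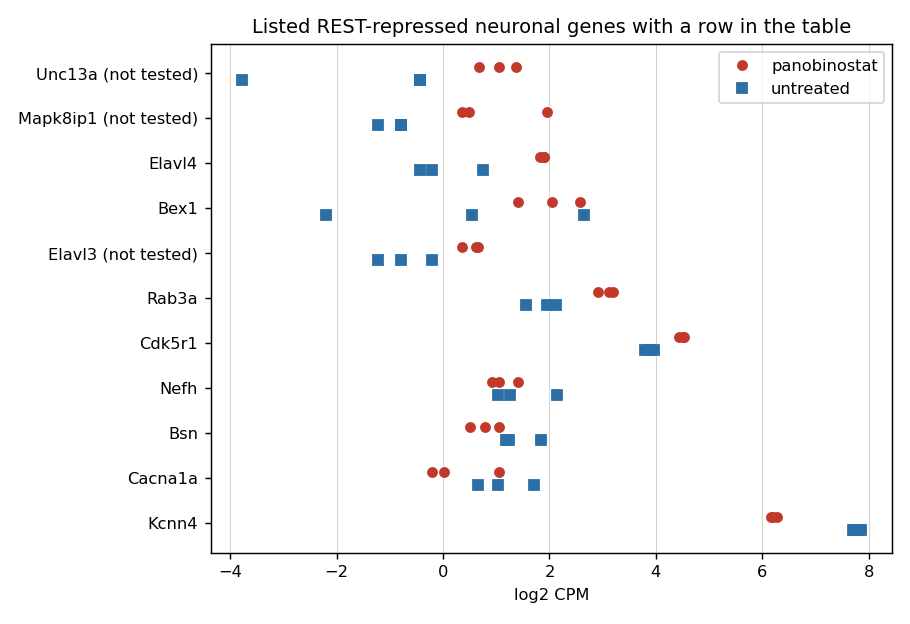
Log2 CPM of 11 of the 13 listed neuronal genes with a value, 3 red circles for panobinostat libraries and 3 blue squares for untreated libraries, ordered by the difference of means. Most genes lie below 4 log2 CPM, and Kcnn4 lies highest at 6.16 to 6.28 in panobinostat libraries and 7.70 to 7.86 in untreated libraries.

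Markers of nervous tissue were looked at beside these rises. Of 12 neuron markers, 4 had values (Nefh, Elavl3, Elavl4 and Dlg4), summing to 29.6 to 36.9 CPM in panobinostat libraries and 21.4 to 25.6 CPM in untreated libraries. The other 8 were not analysed here. Elavl4 rose and 0 fell, while Dlg4, which carried most of that sum, stood at 0.36 on the log2 scale and did not pass. Of 9 glia markers, 2 had values, summing to 71.4 to 83.8 CPM in panobinostat libraries and 60.02 to 76.0 CPM in untreated libraries, and 0 rose or fell. The part of nervous tissue RNA in these rises was not tested.

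The gene families of the neuronal genes were set beside them. Of 19 other tubulin genes 13 were tested, and 3 rose (23.1%) and 2 fell (15.4%), near the shares of all tested genes (19.2% rose, 19.0% fell), with a median log2 fold change of 0.12. Tubb2a, a beta-tubulin abundant in brain, rose to 6.16, 6.08 and 5.86 log2 CPM in panobinostat libraries, against 5.10, 4.94 and 5.07 in untreated libraries (log2 fold change 1.0, SE 0.11, limma adjusted p = 0.00072). Tubb2b, also abundant in brain, rose by 0.76 ± 0.13 (SE) at a far higher level, with 9.35 to 9.84 log2 CPM in panobinostat libraries and 8.70 to 8.87 in untreated libraries, and Tuba4a rose by 0.68 ± 0.08. The widely expressed beta-tubulin genes Tubb4b (-0.47 ± 0.11) and Tubb5 (-0.23 ± 0.07) fell. The Tubb5 call was lost without any 1 of the panobinostat libraries and without untreated library 3 (-0.27 to -0.18 over all fits with 1 library left out). Tubulin genes are alike in sequence, so the split of reads between those not checked above is uncertain.

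Of 38 listed synaptotagmin and vesicle fusion genes 17 were tested, and 6 rose (35.3%, against 19.2% of all tested genes) and 2 fell (11.8%, against 19.0%), with a median log2 fold change of 0.05. Stx1a, the syntaxin of synapses, rose to 1.57, 1.64 and 1.19 log2 CPM in panobinostat libraries, against 0.38, 0.02 and 0.02 in untreated libraries (log2 fold change 1.33, SE 0.30, limma adjusted p = 0.0113). Vamp1 (0.87 ± 0.17, SE), a vesicle SNARE gene, and the extended synaptotagmin gene Esyt2 (0.63 ± 0.14) also rose. Vamp8 (-1.24 ± 0.16) and Stxbp2 (-0.66 ± 0.12) fell. The remaining called genes of the list, outside the naming rule, all rose. Syt13, the other synaptotagmin tested, was well expressed in both groups and stood at -0.12 on the log2 scale, and did not pass. Without panobinostat library 1 the list gave 5 calls.

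Of 33 listed microtubule-associated genes 18 were tested, and 3 rose and 3 fell (16.7% each way, near the 19.2% and 19.0% of all tested genes), with a median log2 fold change of 0.05. Map4, the widely expressed relative of Map2, rose to 6.37, 6.49 and 6.53 log2 CPM in panobinostat libraries, against 5.96, 5.45 and 5.70 in untreated libraries (log2 fold change 0.76, SE 0.13, limma adjusted p = 0.00409). Camsap1, a minus-end binding protein gene, rose by 0.51 ± 0.09 (SE) and Map7d1 by 0.48 ± 0.11. Map1s (-1.10 ± 0.15) and the plus-end protein gene Mapre1 (-0.59 ± 0.12) fell.

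**Figure D5:**
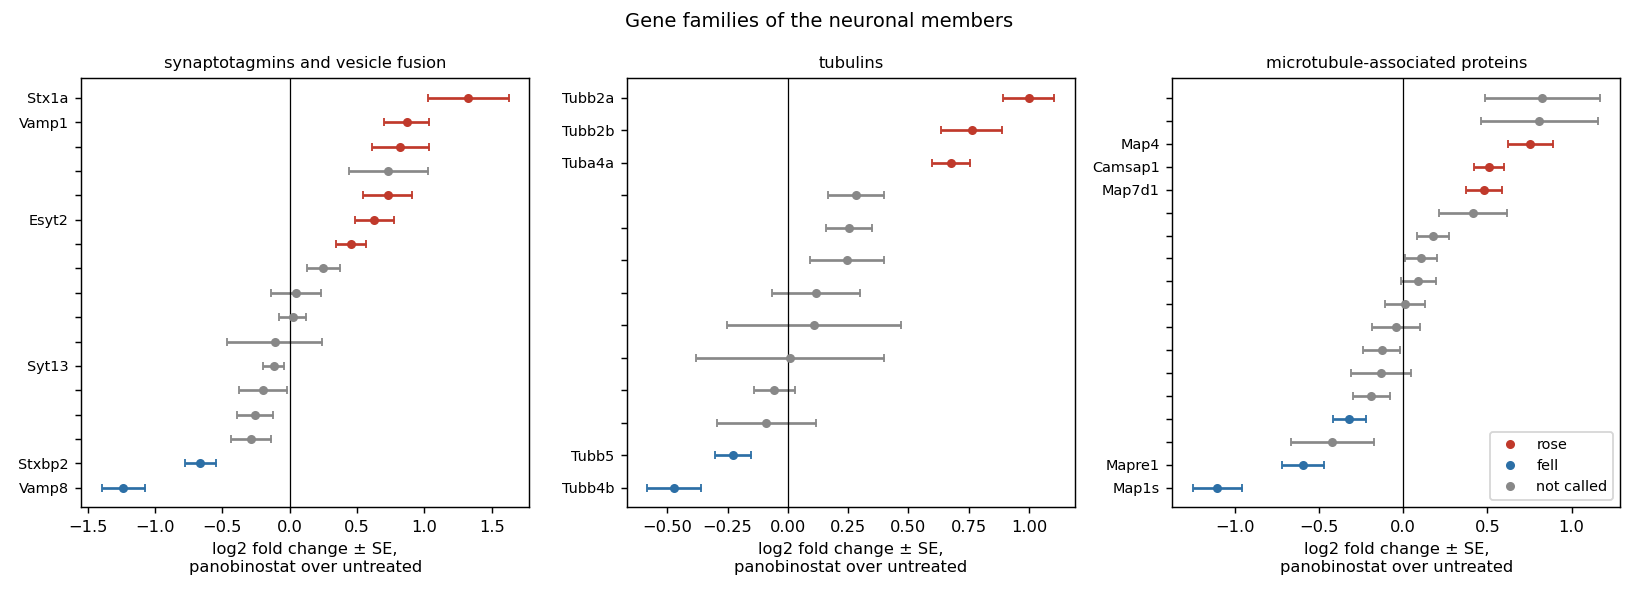
Log2 fold change with its SE, panobinostat over untreated, for tested genes of 3 families: synaptotagmins and vesicle fusion (left), tubulins other than Tubb3 (middle) and microtubule-associated proteins other than Map2 (right); red points rose, blue points fell and grey points were not called, and genes not named in the text have no label. Each family holds rises and falls, from Vamp8 (-1.24) to Stx1a (1.33) in the first.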

How the data were processed

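The study measured 3' mRNA sequencing (QuantSeq kit) in 6 libraries. HISAT2 2.1.0, cutadapt 1.9, limma and featureCounts (Subread 1.5.0) were used by the authors with build mm10, per the submitters' processing notes. Annotation, strand setting and filters are not given in the sources used here. Deposited by the authors was 1 table of log2 values. That they are quantile normalized log2 CPM was inferred: their powers of 2 sum to 994114 to 994182 per library, and sorted values lie within 0.05 of their mean in 87.6% of rows. Such normalization hides a shift of all genes one way.

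Genes with a mean log2 CPM of at least 0 were tested (631 rows were not), with limma 3.58.1 (eBayes with trend) in R 4.3.3, Benjamini-Hochberg adjustment over all tested genes and a threshold of 0.05. The fit was tested on simulated data. Tables were made with Python 3.11.15 and pandas 2.3.3. Reads were estimated by counting distinct low values. For Rest, which lay above the first 300 distinct values, CPM was instead scaled by the reads per CPM found from low values. The members and lists were chosen with earlier results of these data known. Named were the 4 members, every called corepressor, up to 5 called genes with the smallest adjusted p per other list, and the 3 most alike genes per member; some genes that this rule names are not reported here. Positions came from GENCODE M21 and promoters from RefSeq (GRCm38.p6), the assembly that mm10 names.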

Additional observations from a re-analysis of the deposited data

How the results depend on the processing

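The alternatives were 2 other filters, 2 scalings, a pseudocount of 1, 2 spread models, sample weights, a replicate block and each library left out in turn. The log2 fold changes of Rest (-0.62 to -0.52), Syt11 (1.81 to 2.35), Tubb3 (0.89 to 1.25) and Map2 (0.62 to 0.93) kept their direction in all 15. Map2 (0.77) missed the threshold under the replicate block (limma adjusted p = 0.052) and on leaving out any 1 of 4 libraries. Rest, Syt11 and Tubb3 passed it in all 15. These genes and Map2 were picked on this contrast, so their passes and misses are not read as tests. With 1 library left out the calls over all genes ran from 3299 to 5233 (4806 with all), and those in the lists from 5 to 13 for corepressors, 6 to 10 for turnover and splicing regulators and 5 to 9 for synaptotagmins and vesicle fusion. The replicate block gave 4148 calls over all genes and 7 for the corepressors instead of 11. The libraries share only a number: deviations of same-numbered libraries correlated at -0.04, 0.10 and -0.01, and not every library correlated best with its own number. The low genes rest on few reads, so values from under 10 reads have wide counting intervals.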

Other observations

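A further set was defined by sequence alone, after other results were seen: genes with the joined RE1 motif, at most 2 mismatches, in a RefSeq promoter window. Of 69 listed neuronal genes reported as REST targets, 42 had such a window. The motif was held by 7 of these genes (16.7%), namely Celsr3, Chrm4, Dner, Gria2, Grin1, Scamp5 and Syn1. Counted by gene in the same way, it was held by 599 of all 27025 genes with a window, and counted by window by 1.92%. None of the 7 was analysed here for expression. Over the genome 599 genes held the motif, of which 193 were tested. Of these 28 rose (14.5%) and 37 fell (19.2%), beside 19.2% and 19.0% of all tested genes, and their median log2 fold change was -0.06.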
